A study of Homo sapiens with 22 samples.

Results

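Acetylation of lysine 27 of histone H3 (H3K27ac) was compared between K562 cells after 72 h in phorbol 12-myristate 13-acetate (PMA) and the same line at 0 h. All regions of the deposited H3K27ac count table that lie on chromosomes 1 to 22 and X were taken, which gave 94896 of the 95436 regions in that table and of the 409446 regions in the 4 tables of the series. Of these, 94325 had enough counts to be tested. The study followed chromatin loops in differentiating cells, and its 22 libraries were made with antibodies to H3K27ac, CTCF, Jun and Rad21. K562 is a human leukemia line with erythroid features, labelled wild type, and PMA was given at 25 nM for 0, 6 or 72 h, so cells labelled 0 h had no time in the drug. Cells of all groups were fixed for 10 min in 1% formaldehyde and split into aliquots of 500000 cells, and the titles' abbreviation CNR is taken here as CUT&RUN, in which an antibody-guided nuclease releases the DNA beside the marked histone. The comparison rests on 2 libraries at 72 h and 2 at 0 h; the 2 libraries at 6 h entered the same fit to estimate the spread. All groups are a single line, so nothing here speaks for primary cells.

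H3K27ac is placed by the acetyltransferases p300 and CBP and marks promoters and enhancers in use. PMA mimics diacylglycerol and activates protein kinase C, which signals through the MAP kinases to the AP-1 transcription factors, dimers of Jun and Fos family proteins. In K562 it is known for slowing division, lowering the erythroid programme and raising features of megakaryocytes, the platelet precursors, with adhesion and spreading of the cells. Depth was higher at 72 h, where the libraries held 26216577 and 27266241 counts, than at 0 h, where they held 19963875 and 21772218. Log2 levels of replicates correlated across regions at r = 0.987 and 0.988. The labels do not say whether replicates were separate cultures, so p-values measure only the spread between these libraries, which may be technical. Levels below (CPM) are counts scaled to a common library total, so they are relative to the rest of a library. With bulk cells, a lower level in fewer cells and a lower level in each cell cannot be told apart.

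Promoters that the results turn on are shown first, as the 250 bases before the gene start in RefSeq's GRCh38.p14 annotation, read 5′ to 3′ on the gene's strand. They were chosen after the values were seen, to show what starts with a large fall, a large rise and a CpG-rich body look like. Capitals mark the letters TGANTCA, read by AP-1, on either strand. They likewise mark AGATAA, a form of the site read by GATA factors, and CCACACCC, read by KLF factors. None of these motifs contains another, and a sequence wholly in lower case has no match to these letters. Other forms of the GATA site, such as TGATAA, were not searched, so lower case does not mean that no GATA site is there. KLF1 (chr19:12887202-12887451, minus strand) encodes an erythroid transcription factor, EPB42 (chr15:43221019-43221268, minus) a red cell membrane protein, KEL (chr7:142962364-142962613, minus) the Kell blood group protein, and EPOR (chr19:11384315-11384564, minus) the erythropoietin receptor.
KLF1: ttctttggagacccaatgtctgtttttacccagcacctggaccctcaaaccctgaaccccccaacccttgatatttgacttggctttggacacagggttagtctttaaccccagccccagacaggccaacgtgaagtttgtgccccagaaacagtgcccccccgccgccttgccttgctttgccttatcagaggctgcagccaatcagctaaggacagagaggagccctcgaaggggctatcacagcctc
EPB42: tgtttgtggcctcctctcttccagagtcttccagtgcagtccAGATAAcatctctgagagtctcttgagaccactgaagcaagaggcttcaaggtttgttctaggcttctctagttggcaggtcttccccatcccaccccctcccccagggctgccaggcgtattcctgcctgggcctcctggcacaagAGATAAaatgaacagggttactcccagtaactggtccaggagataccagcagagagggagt
KEL: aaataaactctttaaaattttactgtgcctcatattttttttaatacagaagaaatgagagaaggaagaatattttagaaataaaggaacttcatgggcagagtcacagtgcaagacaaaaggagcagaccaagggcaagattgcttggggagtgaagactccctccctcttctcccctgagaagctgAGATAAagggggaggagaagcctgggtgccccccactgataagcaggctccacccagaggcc
EPOR: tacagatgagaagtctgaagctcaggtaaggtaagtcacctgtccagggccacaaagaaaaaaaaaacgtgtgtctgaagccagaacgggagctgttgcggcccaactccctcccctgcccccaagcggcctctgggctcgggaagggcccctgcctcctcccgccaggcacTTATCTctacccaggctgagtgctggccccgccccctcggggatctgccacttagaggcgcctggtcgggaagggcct
SORBS2 (chr4:185933129-185933378, minus) encodes an adaptor of the actin cytoskeleton, IL1A (chr2:112784494-112784743, minus) and IL11 (chr19:55370464-55370713, minus) encode cytokines, and LAT (chr16:28984553-28984802, plus) an adaptor of T cell and platelet receptor signalling.
SORBS2: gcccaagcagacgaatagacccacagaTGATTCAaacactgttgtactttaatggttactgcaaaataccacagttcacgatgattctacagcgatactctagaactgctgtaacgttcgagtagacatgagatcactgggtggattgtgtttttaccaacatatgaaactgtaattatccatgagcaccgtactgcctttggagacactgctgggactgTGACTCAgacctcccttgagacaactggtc
IL1A: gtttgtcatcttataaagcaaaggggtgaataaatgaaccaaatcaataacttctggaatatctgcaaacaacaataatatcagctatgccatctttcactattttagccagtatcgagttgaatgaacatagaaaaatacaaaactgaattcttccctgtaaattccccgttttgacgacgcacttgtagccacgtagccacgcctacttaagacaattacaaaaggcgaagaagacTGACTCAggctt
IL11: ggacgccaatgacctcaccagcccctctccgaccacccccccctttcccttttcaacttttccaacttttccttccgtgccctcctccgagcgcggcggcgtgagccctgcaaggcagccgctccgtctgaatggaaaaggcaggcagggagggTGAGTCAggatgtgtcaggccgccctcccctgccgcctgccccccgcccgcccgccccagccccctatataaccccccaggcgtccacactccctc
LAT: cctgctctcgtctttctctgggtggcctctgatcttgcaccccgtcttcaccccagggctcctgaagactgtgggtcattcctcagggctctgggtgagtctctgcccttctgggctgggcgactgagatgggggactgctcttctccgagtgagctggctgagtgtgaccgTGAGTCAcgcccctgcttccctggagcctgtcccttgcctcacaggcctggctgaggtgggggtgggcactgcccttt
TYMS (chr18:657403-657652, plus) encodes thymidylate synthase, which makes a DNA precursor, and its promoter is rich in CpG.
TYMS: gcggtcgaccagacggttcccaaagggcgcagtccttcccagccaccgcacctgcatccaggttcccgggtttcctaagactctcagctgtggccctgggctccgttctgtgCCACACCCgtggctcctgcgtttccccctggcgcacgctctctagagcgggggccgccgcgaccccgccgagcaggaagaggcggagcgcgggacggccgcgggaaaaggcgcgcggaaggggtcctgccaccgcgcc
The regions that overlap the first 4 windows fell, by 4.98, 4.80, 3.61 and 2.15 on the log2 scale for KLF1, EPB42, KEL and EPOR. The windows of EPB42, KEL and EPOR hold GATA matches, 208 and 61 bases before the start of EPB42, 62 before that of KEL and 78 before that of EPOR. Those overlapping the windows of SORBS2, IL1A, IL11 and LAT rose by 7.18, 3.77, 4.05 and 3.96. Their windows hold AP-1 matches, at 223 and 30 bases before the start of SORBS2, at 12 for IL1A, 96 for IL11 and 78 for LAT. These windows are examples and do not give the usual share of matches. An AP-1 match was in 26.2% of 724 promoters under a region at least 4-fold higher. GATA matches were in 11.8% of 391 promoters at least 4-fold lower and in 12.2% of those at least 4-fold higher. The region over TYMS fell by 1.64, and its window holds 28 CpG and a KLF match, against 0 to 16 CpG in the other 8 windows.

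Most tested regions changed, and the largest changes were rises. With edgeR's quasi-likelihood test and a Benjamini-Hochberg adjusted p under 0.05, 76943 of 94325 regions (81.6%) were called, 41059 higher at 72 h (43.5%) and 35884 lower (38%). The libraries of both times did not overlap in 85854 regions (91%). The median log2 fold change over all tested regions was 0.19. Regions called and at least 4-fold higher numbered 26803 (28.4%), against 11145 at least 4-fold lower (11.8%). Many of the largest rises start from next to nothing: of 11709 called regions with a fitted rise of 16-fold or more, 5477 had at most 3 counts over both 0 h libraries. Their fitted size then depends on the model's prior, and with the 0 h group set to a floor of 3 counts 9841 of them were past 16-fold and 1624 past 64-fold. Of 1349 regions with a fitted fall of 16-fold or more, 1314 were past it with that floor, and 47 were past 64-fold. The split depends on the scaling: of the called regions 53.4% were higher with the scaling used here, and 68.7% with factors taken from regions that have a peak in every library. That choice moves the median over all regions from 0.19 to 0.79, so the classes by position below are also given relative to it. The authors' deposited table holds a log2 fold change for the same contrast, which correlated with these values at r = 0.983 across regions and had the same sign in 99.2% of them.

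As a group, promoter regions lost acetylation relative to the rest of the genome, in a pattern that varied with level, as given below. Of 17048 tested regions within 2 kb of a listed gene start, 3637 were higher (21.3%) and 10369 lower (60.8%), with a median log2 fold change of -0.59 (82.2% called in all). With factors from regions that have a peak in every library, the promoter counts turned to 6125 higher and 5457 lower and the median to 0.02. The promoter median lay 0.78 below that of all regions on the log2 scale, a difference that scaling cannot change. Among regions with a mean count of at least 50 it lay 0.46 below. The share of a library's counts that fell in these regions needs no scaling between libraries. It was 42.5% and 42.7% at 0 h, 40.1% and 41.1% at 6 h, and 33.7% in both libraries at 72 h. The 72 h libraries thus lay below all others in that share.

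Away from gene starts, rises outnumbered falls. Inside gene spans 47.1% of 48768 regions were higher and 34% lower, with a median of 0.50, which is 0.31 above that of all regions. Outside genes but within 50 kb of one, 55.4% of 20911 regions were higher and 27.6% lower, with a median of 1.13, 0.94 above. Regions over 50 kb from any gene were few, 2205, with 44.7% higher, 32.7% lower and a median 0.17 above that of all regions. Distance to the nearest listed start gave medians of 0.45 at 2 to 10 kb, 0.63 at 10 to 50 kb and 0.79 at 50 to 200 kb. Beyond 200 kb the median was -0.34, and 43.5% of those 2431 regions were lower. The 5393 regions at an end of a gene without a listed start had a median of -0.26, or -0.45 relative to all regions. The bars of calls by position and the promoter share by library show both patterns.

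**Figure D1:**
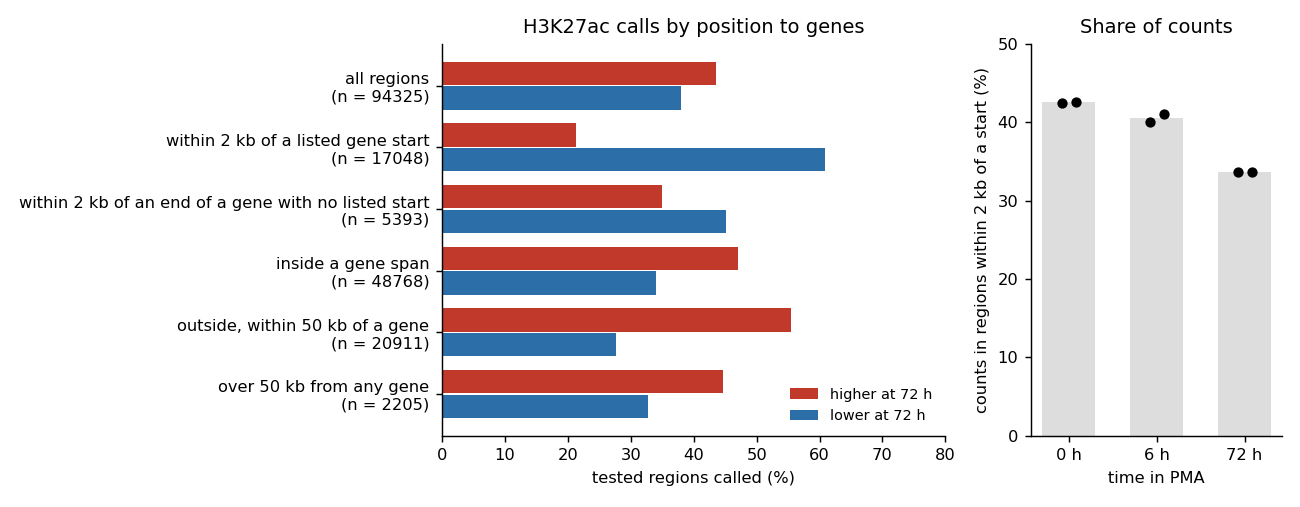
Left, percent of tested H3K27ac regions called higher (red) or lower (blue) at 72 h against 0 h, by position to genes, with the number of regions in brackets. Right, percent of each library's counts in regions within 2 kb of a listed start, 1 point per library and bars for the mean of 2; the 72 h libraries sit at 33.7%, below the 0 h and 6 h libraries.

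Level and position moved together. Among promoter regions with a mean over 50 CPM, 5.12% of 2208 were higher and 85.5% lower, and among those from 10 to 50 CPM 12.8% of 7222 were higher and 74.8% lower. Regions away from promoters and gene ends with a mean over 50 CPM also had more falls than rises, 64.9% against 22.4% of 1515. At 2 to 10 CPM, regions away from promoters were 50.6% higher and 34% lower, while promoter regions were 28.7% higher and 48.8% lower. Fainter promoter regions had more rises: at 0.5 to 2 CPM 41.4% of 2340 were higher and 25.3% lower. Under 0.5 CPM 85.9% of 206 were higher and 4.85% lower. Regions away from promoters and gene ends were 47.9% and 80.7% higher at these 2 levels. Over 50 CPM the median log2 fold changes were close, -0.70 at promoters and -0.58 away from them. Regions with under 10 counts made up 24.2% and 23.8% at 0 h, 14.7% and 11.3% at 6 h, in libraries of fewer counts (12634261 and 18775241), and 5.03% and 5.66% at 72 h. By chromosome, the median was lowest on chromosome 19 (-0.34), 4 (-0.28) and X (-0.25) and highest on 5 (0.53), 8 (0.51) and 20 (0.51).

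Regions with the largest rises were mostly distal and most carried Jun peaks at 72 h, as did those with smaller rises. Of 11711 regions with a fitted rise of 16-fold or more, 7.05% lay at promoters, against 18.1% of all tested regions. Their median level went from 0.109 CPM through 0.82 at 6 h to 4.61 at 72 h. Peaks of Jun in both 0 h libraries overlapped 3.92% of them, and peaks in both 72 h libraries 72.3%. Over all tested regions the same shares were 22.7% and 53.9%. Regions 4- to 16-fold and 2- to 4-fold higher resembled the largest rises in Jun peaks at 72 h and in promoter share. At 0 h they differed. Jun peaks in both 0 h libraries overlapped 12.3% and 22.2% of them, and their median levels at 0 h were 0.44 and 1.22 CPM. Jun peaks in both 72 h libraries overlapped 73.5% and 68.3% of them, and 7.1% and 8.89% lay at promoters. The Jun libraries held 7952946 and 8600736 counts with 31637 and 35072 peaks at 0 h, and 17245043 and 18883962 counts with 92329 and 99102 peaks at 72 h; the part of this depth in the Jun shares was not tested. Rad21 belongs to cohesin, the ring that extrudes and holds loops. It had peaks in 0.564% of the regions with the largest rises at 0 h and 8.26% at 72 h, in libraries of 4398797 to 7285286 counts. CTCF, which stops cohesin at loop anchors, had peaks in 1.28% and 3.59%.

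The strongest falls showed the opposite shift. Of 1349 regions with a fitted fall of 16-fold or more, 5.04% lay at promoters, and the median level went from 5.62 CPM through 1.45 at 6 h to 0.218 at 72 h. Jun peaks overlapped 14.2% of them at 0 h and 4.3% at 72 h, and Rad21 peaks 14.01% and 0.667%. CTCF peaks were few at both times, 1.41% and 0.964%. In the 32100 regions within 2-fold, CTCF peaks covered 11.4% and 12.6% and Rad21 peaks 23.4% and 19.8%. The 3 panels of peak shares give all 7 classes of size.

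**Figure D2:**
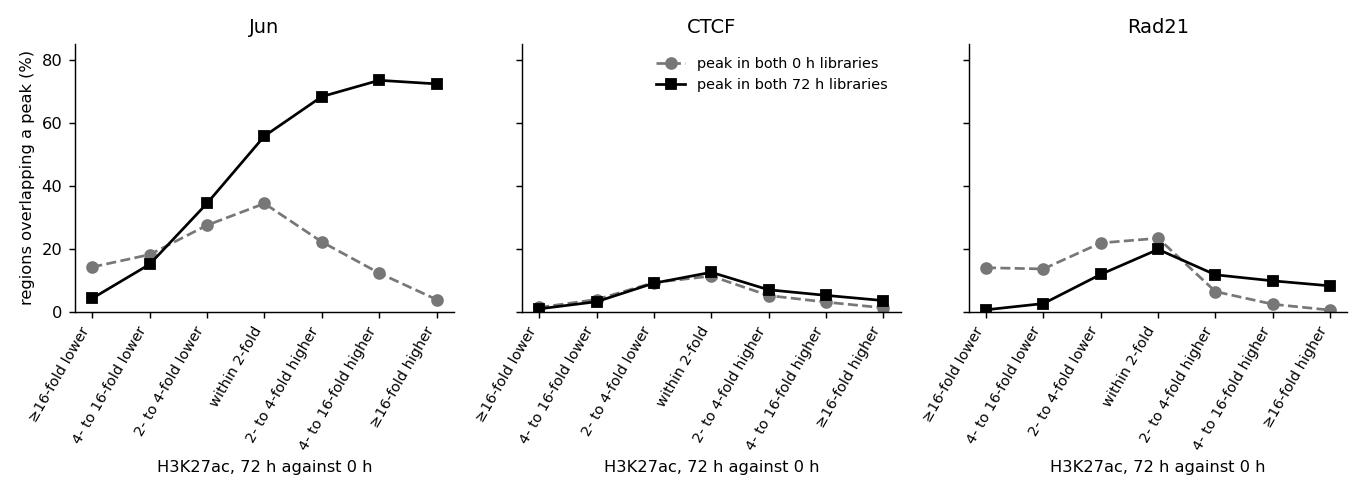
Percent of H3K27ac regions in 7 classes of change (72 h against 0 h) that overlap a peak, as deposited, of Jun, CTCF or Rad21 in both libraries at 0 h (grey circles) or in both at 72 h (black squares). The Jun curve at 72 h runs from 4.3% in the regions at least 16-fold lower to 72.3% in those at least 16-fold higher; CTCF stays at or below 12.6% throughout.

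The deposited H3K27ac peaks, called per library from the same reads, describe the same sides. Regions with a peak in both libraries of both times numbered 21179, with 42.6% at promoters and a median log2 fold change of -0.64. Those with peaks only at 72 h numbered 21652, with 8.6% at promoters and a median of 2.84. Those with peaks only at 0 h were fewer, 4648, with 14.6% at promoters and a median of -2.45. The 72 h libraries were deeper, with 26216577 and 27266241 counts against 19963875 and 21772218 at 0 h. The part of this depth in the peak numbers was not tested. A further 22754 regions had no peak at either time, and 24663 had a peak in only 1 library of a time.

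Promoters with large rises differed in base content from the rest, while most of those with large falls lay near it. Among the 14181 listed promoters outside chromosome 8 that a tested region overlapped, the 250 bases before the start had a median GC content of 64.4% and 21 CpG. The 303 promoters under a region at least 16-fold higher had a median of 51.2% GC and 4 CpG. The 375 at 4- to 16-fold lower had 66% GC and 19 CpG, and the 16 at least 16-fold lower 56% GC and 3.5 CpG. An AP-1 match was in 28.1% of the promoters at least 16-fold higher, against 5.5% of the overlapped promoters and 6.54% of all 34961 listed ones. The share with an AP-1 match was 24.9% at 4- to 16-fold higher (n = 421), 14.3% at 2- to 4-fold higher (n = 448), 4.56% within 2-fold (n = 9275), 2.51% at 2- to 4-fold lower (n = 3343) and 5.07% at 4- to 16-fold lower. ETS matches (CCGGAAGT) were rarer at both ends, in 0.66% of the promoters at least 16-fold higher, 8.82% within 2-fold, 0.53% at 4- to 16-fold lower and 7.42% of the overlapped ones. GATA matches were in 13.9% of the promoters at least 16-fold higher, 10.9% at 4- to 16-fold higher, 10.7% at 4- to 16-fold lower and 5.35% of the overlapped ones. Of the 16 promoters at least 16-fold lower, 37.5% had a GATA match and 0% an AP-1 or ETS match. KLF matches were in 2.64% of the promoters at least 16-fold higher and 2.83% of the overlapped ones. A match describes letters in this window and is not a bound site, and the GATA shares count AGATAA only.

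The promoter regions with the greatest rises included those of INHBA, TNS1 and SORBS2, and the deepest falls those of KLF1, EPB42 and OAT. The 20 regions described, 10 in each direction, were the extremes of log2 fold change among called protein-coding promoters with a mean of at least 10 CPM at the higher time and libraries that did not overlap. At INHBA, which encodes the activin A subunit, the region lay 183 bases from the nearest listed start. Both 0 h libraries had 0 counts there and the 72 h libraries 12.92 and 12.998 CPM. Against a floor of 3 counts over the 0 h group this is at least 158-fold higher. At ABR, a regulator of small GTPases, the region lay 1294 bases from the nearest listed start. There the 0 h libraries also had 0 counts and the 72 h libraries 13.61 and 15.0004 CPM, at least 174-fold higher. TNS1 encodes tensin, which links focal adhesions to actin, and has its region 1881 bases from the nearest listed start. Its region (chr2:217933983-217935664) had 0.0568 and 0 CPM at 0 h, which is 1 count, and 19.9 and 22.6 CPM at 72 h, a ratio of 777 with an exact binomial 95% interval of 139 to 30713 that covers counting error only. That every 72 h library lay above every 0 h library in these regions was required by the rule that named them.

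SORBS2 had enough counts for a fitted value. Its region (chr4:185931522-185934171, over the start) had 0.341 and 0.105 CPM at 0 h and 31.8 and 33.5 at 72 h (log2 fold change 7.18, SE 0.26, adjusted p = 2.58e-18 by edgeR's quasi-likelihood test). OR7E24, an olfactory receptor gene, had 0.682 and 0.421 CPM at 0 h and 59.9 and 68.8 at 72 h, the highest level of the 10 (log2 fold change 6.86, SE 0.20, adjusted p = 7.12e-20). The others were ARHGAP22, a GTPase activator, F2RL1, a protease-activated receptor, GJB2, a gap junction protein, CORO2B, an actin-binding coronin, and LOC124905027. Their regions lay 1202, 1248, 1085, 1000 and 1903 bases from the nearest listed start, in that order. Such regions flank a start, so their levels are not those of the start itself. The 0 h groups of these regions held 2 counts each and their 72 h libraries between 12.7 and 19.6 CPM. All 10 regions overlapped a Jun region, but the share of all promoter regions that do so was not taken. Peaks of Jun in both libraries overlapped 33.6% of all 17048 tested promoter regions at 0 h and 50.6% at 72 h. At SORBS2 Jun had 2.05 and 2.15 CPM at 0 h and 17.98 and 21.002 at 72 h, and at INHBA 3.08 and 1.32 against 13.26 and 14.02.

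The 10 deepest falls included erythroid genes and genes of metabolism and transport. At KLF1 a region 491 bases from the start (chr19:12887692-12888269) had 27.6 and 29.1 CPM at 0 h and 0.507 and 0.146 at 72 h (log2 fold change -6.41, SE 0.25, adjusted p = 8.33e-18). At EPB42 (chr15:43221150-43222867) the levels were 44.6 and 38.5 CPM at 0 h and 1.70 and 1.27 at 72 h (log2 fold change -4.80, SE 0.17). The rule for naming required that the 0 h libraries of both genes lay above the 72 h libraries. OAT, the mitochondrial ornithine aminotransferase, had 34.6 and 37.1 CPM at 0 h and 0.289 and 0.4 at 72 h, the lowest log2 fold change of the set, -6.68 (SE 0.21, adjusted p = 3.05e-19). CNKSR3, a signalling scaffold, had the highest starting level, 112 and 111 CPM, and 4.70 and 3.93 CPM at 72 h (-4.69, SE 0.13). SLC30A10, a metal transporter, fell by 4.71, PRKAA1, a catalytic subunit of AMP-activated kinase, by 4.84 and PRG3, an eosinophil granule protein gene, by 5.13 on the log2 scale. C17orf99, LOC124900646 and LOC124904701 fell by 5.57, 4.99 and 4.69. A Jun region overlapped 5 of the 10, again with no share over all promoter regions taken. The Jun level fell too, at OAT from 12.48 and 14.4 to 0.776 and 0.528 CPM and at CNKSR3 from 25.3 and 26.3 to 3.81 and 3.99.

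**Figure D3:**
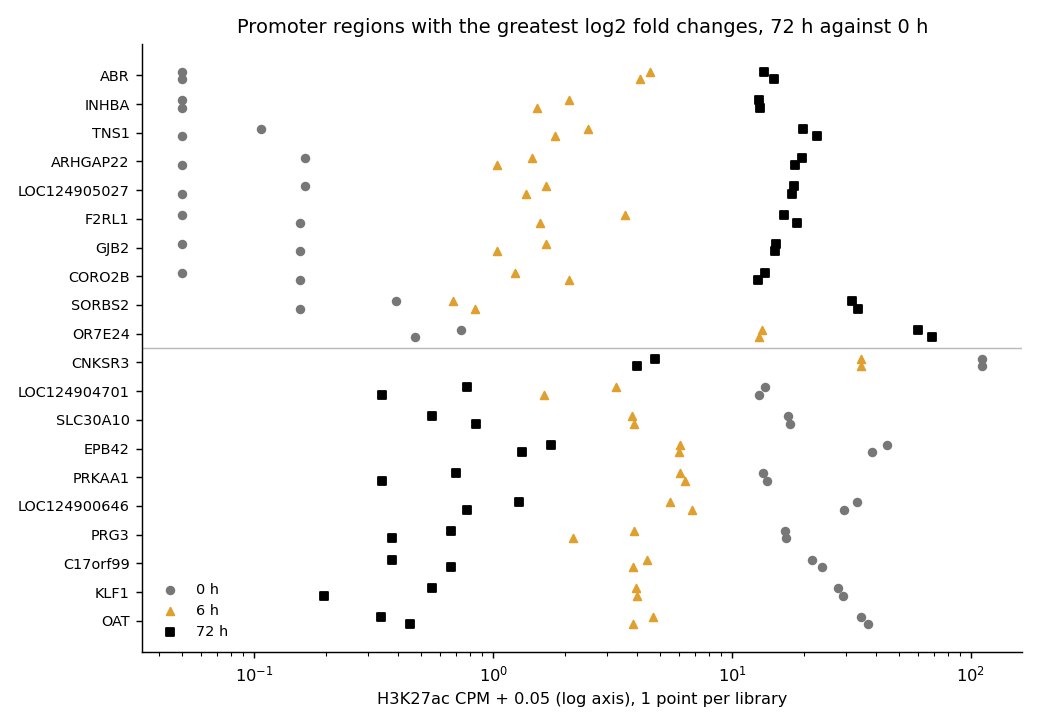
H3K27ac level of 20 named promoter regions in each library (CPM + 0.05, log axis), with 0 h as grey circles, 6 h as orange triangles and 72 h as black squares. Above the grey line the 72 h libraries lie to the right of all 0 h libraries, and below it to their left, which the rule for naming required. The 6 h libraries lie between.

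Summed over whole genes, 15655 protein-coding loci (gene span with 5 kb to each side) were tested, and 81.7% were called: 5930 were higher (37.9%) and 6867 lower (43.9%), with a median log2 fold change of -0.09. Scaled with the factors of the region table, an alternative added after seeing the data, these became 4228 higher and 9581 lower with a median of -0.50, and with factors from regions that have a peak in every library 7100 higher and 5133 lower. Locus changes within about that shift have no settled direction. The 8 greatest rises among loci of at least 3 regions were far beyond it. INHBA rose from 0.343 and 0.269 CPM to 127 and 140 (log2 fold change 8.75, SE 0.15, adjusted p = 9.79e-21), with all 7 regions higher. SMOC1, a secreted calcium-binding matrix protein, rose from 0.0981 and 0.179 CPM to 63.8 and 70.7 (8.84, SE 0.22), again in all 7 regions. ARNT2, a partner of bHLH-PAS transcription factors, had the highest final level, 367.9 and 392.2 CPM against 2.16 and 2.19 at 0 h (7.44, SE 0.11), and all 26 regions were higher. RIMBP2, MALL, DMBT1, FAM135B and C14orf132 rose by 7.87, 7.82, 7.65, 7.57 and 7.50. No 0 h library of these 8 loci was above 2.19 CPM.

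The 8 deepest falls among loci included several genes not known for a role in blood cells, and some share regions. OOSP4A, an oocyte-secreted protein gene, fell from 185 and 184 CPM to 5.01 and 5.41 (log2 fold change -5.15, SE 0.09, adjusted p = 1.23e-20), with all 6 regions lower. The neighbouring OOSP1 (-4.63) shares 4 of its 6 regions. PREX2, an exchange factor for Rac, fell from 83.2 and 86.0 CPM to 3.05 and 2.46 (-4.94, SE 0.11) in all 5 regions. GCDH (-3.99), a mitochondrial enzyme gene, owes its value to regions counted for KLF1 too, which hold all 4 of its regions. BAAT, CRISP3, SPATA16 and LOC441239 fell by 4.38, 3.98, 3.79 and 3.75. That both 72 h libraries lay below both 0 h libraries in each of these 8 loci was required by the rule that named them.

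Regions with gaps of up to 12500 bp were stitched into 32069 tested clusters, of which 84.6% were called, 14673 were higher (45.8%) and 12456 lower (38.8%); the share of higher among called clusters was 54.1%, and 69.1% with factors from regions that have a peak in every library. By gain in CPM, the largest cluster spanned CDCP1 and TMEM158 (chr3:45041312-45226272). It went from 1041 and 1095 CPM to 2094 and 2270 (log2 fold change 1.03, SE 0.08, adjusted p = 2.60e-09), with 41 of 49 regions higher. The cluster over MICAL2, an actin-oxidising enzyme gene (chr11:12046237-12288177), went from 482 and 503 CPM to 1541 and 1660 (1.70, SE 0.08), with 64 of 69 regions higher. The cluster over SMNDC1 and DUSP5, a nuclear phosphatase of ERK (chr10:110303625-110547612), went from 142 and 150 CPM to 1063 and 1138 (2.91, SE 0.08), with 68 of 70 regions higher. The other 2 of the 5 overlapped only uncharacterised loci, at chr12:75815600-75980234 (2.91, 33 of 33 regions higher) and chr6:14611769-14744627 (1.56, 33 of 34 higher).

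The clusters with the largest losses in CPM covered CPED1, SGMS1, PRKAR2B and STXBP5-AS1. CPED1 (chr7:120988412-121108066) went from 2644 and 2507 CPM to 872 and 901 (log2 fold change -1.54, SE 0.09, adjusted p = 1.88e-11), and all 35 regions were lower. SGMS1, sphingomyelin synthase (chr10:50312456-50379826), went from 1478 and 1457 CPM to 406 and 427 (-1.82, SE 0.09), with all 15 regions lower. PRKAR2B, a regulatory subunit of protein kinase A (chr7:106971159-107089931), went from 1186 and 1176 CPM to 269 and 281 (-2.10, SE 0.08), with 24 of 25 regions lower. STXBP5-AS1 (chr6:146855000-146899006) fell by 1.39 as a whole, and all 17 regions were lower, from -0.43 to -3.01. The largest loss, at chr2:32893897-32916582 (-1.05), came almost wholly from a region of 401 bp, chr2:32916182-32916582. That region had 4648 and 3679 CPM at 0 h and 2130 and 1630 at 72 h, a level far above any other named region. Rad21 had 9643 and 9585 CPM there at 0 h and 7115 and 7735 at 72 h; what gives so short a region such levels with 2 antibodies was not tested.

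Single regions away from promoters gave the following. The largest gain in CPM was at chr22:22720253-22722895, inside the immunoglobulin lambda locus (IGL), with 7.21 and 9.64 CPM at 0 h and 364 and 387 at 72 h (log2 fold change 5.47, SE 0.15, adjusted p = 3.46e-20). A neighbour at chr22:22726816-22729618 went from 5.57 and 4.85 to 216 and 224 CPM. Jun at the first of these went from 63.2 and 69.2 CPM to 396 and 368. Inside DGKI, which encodes a diacylglycerol kinase, chr7:137771703-137775135 went from 0.909 and 0.527 CPM to 169 and 200 (8.01, SE 0.19). Inside TRIO, an exchange factor for small GTPases, chr5:14406771-14409569 went from 1.19 and 0.579 to 156 and 170 CPM (7.53, SE 0.18). A region near FASLG, which encodes the Fas ligand, chr1:172697112-172700572, rose by 4.66. None of the 0 h libraries reached 10 CPM in these 5 regions.

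Beside the short region on chromosome 2, the largest losses away from promoters lay in SGMS1, in PDIK1L and outside genes. The SGMS1 region chr10:50324721-50329841 went from 830 and 798 CPM to 241 and 265 (log2 fold change -1.68, SE 0.12). At chr8:90195418-90199124 the levels were 315 and 317 CPM at 0 h and 19.7 and 18.1 at 72 h (-4.06, SE 0.12, adjusted p = 1.48e-19). At chr21:14451758-14455899 they were 315 and 312 CPM and then 22.002 and 23.9 (-3.77, SE 0.13). In the kinase gene PDIK1L, chr1:26124805-26128044 went from 344 and 358 CPM to 60.1 and 58.9 (-2.56, SE 0.12). Jun and Rad21 levels were lower at 72 h in each of these 4 regions, for Jun from 34.0 and 39.2 CPM to 12.9 and 12.7 on chromosome 8 and for Rad21 from 55.9 and 48.2 CPM to 17.6 and 12.9.

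Erythroid genes fell as a group. Of 40 listed loci, 36 were lower and 2 higher, with a median log2 fold change of -0.74 and a range of medians from -1.15 to -0.54 over the settings tried. All loci had 43.9% lower and a median of -0.09. Of the 23 with a tested promoter region, 23 fell, with a median of -1.27, where 82% of all 14171 protein-coding promoter regions were called, 16% higher and 66% lower, and the median was -0.65. With factors from regions that have a peak in every library, 17 of the 23 were lower and their median was -0.66. GYPB, a glycophorin of the red cell surface, had 251 CPM in both 0 h libraries and 23.6 and 24.9 at 72 h (log2 fold change -3.37, SE 0.07, adjusted p = 9.38e-20). TFR2, a transferrin receptor of erythroid cells and liver, had 143 and 156 CPM and then 14.2 and 15.1 (-3.35, SE 0.08), and KEL 74.3 and 65.1 and then 11.8 and 12.0 (-2.55, SE 0.09). HBZ, the embryonic zeta globin, had 41.6 and 35.1 CPM and then 7.31 and 6.15 (-2.51, SE 0.13). The libraries of these 4 loci did not overlap between times, as in 91% of all tested regions. The share over all loci was not taken. Reads can be shared between near-identical glycophorin and globin copies, so values of single copies are uncertain.

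The erythroid regulators split by size. The KLF1 locus fell from 184 and 187 CPM to 35.5 and 34.6 (log2 fold change -2.40, SE 0.07). GATA1, the master factor of the lineage, had 156 and 153 CPM at 0 h and 133 and 138 at 72 h (-0.19, SE 0.08, adjusted p = 0.032). That call was lost with DESeq2 (adjusted p = 0.302) and when any single library of either time was left out (0.0724 to 0.171), and the sign turned with factors from regions that have a peak in every library. TAL1, a partner of GATA1, went from 221 and 229 CPM to 308 and 322 (0.48, SE 0.06), and its value was 0.07 with the region table's factors. HEBP1, a heme-binding protein gene, was the only other erythroid locus that rose, from 3.73 and 3.22 CPM to 16.9 and 14.8 (2.19, SE 0.18). Of 11 markers of the K562 line 8 were lower (72.7%, against 43.9% of all loci) and 2 higher (18.2%, against 37.9%). Their summed level was 2088 and 2080 CPM at 0 h and 1701 and 1717 at 72 h, so the defining genes were acetylated at both times. BCR, in the fusion that defines the line, rose from 235 and 239 CPM to 460 and 431 (0.91, SE 0.07).

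Megakaryocyte and platelet genes were mixed, with the largest changes upward. Of 38 listed, 34 loci were tested, and GP5, CD36, CLEC1B and TREML1 had no tested locus. Among the 34 loci 17 were higher (50%, against 37.9% of all loci) and 9 lower (26.5%, against 43.9%). The median was 0.42, with medians from 0.01 to 0.61 over the settings tried. Of their 17 tested promoter regions 6 were higher and 11 lower (64.7%) with a median of -0.59, near the 66% lower and -0.65 of all protein-coding promoter regions; with factors from regions that have a peak in every library the median was 0.02. ITGA2, the collagen receptor chain, had 3.19 and 2.82 CPM at 0 h and 171 and 188 at 72 h (log2 fold change 5.90, SE 0.12, adjusted p = 8.86e-20). VWF, the platelet adhesion protein, had 0.883 and 0.895 CPM and then 36.8 and 32.4 (5.27, SE 0.19), and THBS1, thrombospondin, 0.932 and 0.94 and then 33.7 and 36.4 (5.22, SE 0.19). FLI1, a megakaryocyte transcription factor, rose from 0 and 0.134 CPM to 2.25 and 2.66, which is 3 counts against 119 in its only region, a ratio of 35.1 with an exact binomial 95% interval of 11.7 to 172 for counting error.

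The chains of the platelet fibrinogen receptor differed. ITGB3 went from 137 and 131 CPM to 481 and 506 (log2 fold change 1.88, SE 0.06, adjusted p = 7.55e-17). ITGA2B went from 98.2 and 102 CPM to 82.1 and 81.2 (-0.29, SE 0.06, adjusted p = 0.000265), and this call was lost with factors from regions that have a peak in every library (-0.10, adjusted p = 0.128). In both genes the libraries of the 2 times did not overlap, as in 91% of all tested regions. ANGPT1, RGS18 and TPM1 fell by 1.18, 1.17 and 1.39 on the log2 scale, while TPM4, CD9 and F2R rose by 2.22, 3.91 and 2.01. GP6, GP9, F2RL3, MEIS1, FLNA, MYL9, RAB27B and NBEAL2 were not called.

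AP-1 and immediate early genes were higher in 22 of 27 tested loci (81.5%, against 37.9% of all loci) and lower in 1, MAFG (3.7%, against 43.9%). Their median was 0.78 (0.37 to 0.98 over the settings). With the region table's factors 17 were higher and 9 lower, and SRF, FOSL1, NR4A2, JUNB and EGR1 turned below 0. Of their 20 tested promoter regions 13 were higher (65%, against 16% of all) and 5 lower, with a median of 0.70. BATF3, an AP-1 family member, had 0.736 and 1.07 CPM at 0 h and 18.8 and 18.9 at 72 h (log2 fold change 4.36, SE 0.23, adjusted p = 3.47e-13). EGR2, a zinc finger factor of growth signals, had 7.85 and 8.33 CPM and then 60.7 and 61.9 (2.92, SE 0.09). BATF had 16.8 and 15.2 CPM and then 104 and 108 (2.74, SE 0.08), and NR4A1, an orphan nuclear receptor, 17.9 and 16.6 and then 106 in both libraries (2.62, SE 0.07). The 72 h libraries of these 4 loci lay above the 0 h libraries, where libraries of the times did not overlap in 91% of all tested regions. JUN itself had 34.8 and 33.6 CPM and then 62.0 and 57.1 (0.80, SE 0.08), and FOSL2 and ATF3 rose by 1.99 and 2.31. JUND, IER2, IER5 and KLF10 were not called, and EGR4 had no tested locus.

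Genes of protein kinase C, the target of PMA, and of MAP kinase feedback were higher in 22 of 28 loci (78.6%, against 37.9% of all loci). They were lower in 2 (7.14%, against 43.9%), with a median of 0.76 (0.35 to 0.95 over the settings). With the region table's factors 14 were higher. Of the list's 22 tested promoter regions 12 were higher (54.5%, against 16% of all) and 5 lower (22.7%, against 66%), with a median of 0.32 (0.27 to 0.93 over the settings). DUSP4 and DUSP2, nuclear phosphatases that switch off MAP kinases, rose from 1.08 and 0.985 to 17.3 and 16.1 CPM (log2 fold change 4.01, SE 0.23) and from 3.43 and 4.12 to 57.0 and 52.8 CPM (3.86, SE 0.12). PRKCE, a diacylglycerol-dependent protein kinase C, rose from 20.2 and 21.98 to 265 and 270 CPM (3.66, SE 0.07, adjusted p = 6.20e-20), with 30 of 33 regions higher. PRKD1, a protein kinase D activated downstream of protein kinase C, fell from 26.1 and 24.8 CPM to 0.418 and 0.984 (-5.17, SE 0.24, adjusted p = 4.33e-14). PRKCQ fell by 0.84. PRKCA and PRKCB changed by 0.32 and 0.22, within the shift that scaling alone can give.

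Adhesion, matrix and cytoskeleton genes had 29 of 38 tested loci higher (76.3%, against 37.9% of all loci) and 7 lower (18.4%, against 43.9%). Their median was 0.97 (0.56 to 1.17 over the settings), and ITGA4, MMP1, TIMP3 and TAGLN had no tested locus. CD44, the hyaluronan receptor, had 2.94 and 1.57 CPM at 0 h and 140 and 142 at 72 h (log2 fold change 5.98, SE 0.13, adjusted p = 2.42e-19). ITGA3, a laminin receptor chain, had 5.20 and 5.01 CPM and then 126 and 138 (4.69, SE 0.10), and MMP14, a membrane matrix protease, 2.21 and 1.66 and then 37.4 and 31.3 (4.16, SE 0.18). The libraries of these genes did not overlap between times, as in 91% of all tested regions. MMP9, a secreted gelatinase, rose from 0.049 and 0 CPM to 5.89 and 3.98 in its only region, a ratio of 210.4 (37.4 to 8344) from 1 count at 0 h. Of the list's 23 promoter regions 9 were higher (39.1%, against 16% of all) and 7 lower, and with factors from regions that have a peak in every library 17 were higher and 4 lower. ICAM1, FLNC, CNN2, CALD1, ITGB7, LMNA and ANXA1 were the 7 that fell.

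NF-kappaB and cytokine genes moved in both directions. Of 33 loci 19 were higher (57.6%, against 37.9% of all loci) and 9 lower (27.3%, against 43.9%). The median of 0.34 ran from -0.07 to 0.53 over the settings and so has no settled sign. Of 23 promoter regions 7 were higher (30.4%, against 16% of all) and 10 lower (43.5%, against 66%), with a median of 0.02 (-0.12 to 0.62 over the settings). CCL3 had 0.196 and 0.582 CPM at 0 h and 48.9 and 45.6 at 72 h (log2 fold change 6.87, SE 0.21, adjusted p = 4.00e-17). LIF, a cytokine of the IL-6 family, had 0.49 and 0.179 CPM and then 26.4 and 30.7 (6.42, SE 0.26). CCL2 and IL1B rose by 5.47 and 5.34, and IL1A and IL11 by 4.32 and 3.74. Genes that fell included TNFAIP2 (-1.68), TNFAIP3 (-0.95), which dampens NF-kappaB signalling, and TRAF1 (-0.78). TNF and LTB share both of their regions and were not called.

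Cell cycle and replication genes fell. Of 34 loci 25 were lower (73.5%, against 43.9% of all loci) and 4 higher (11.8%, against 37.9%), with a median of -0.52 (-0.94 to -0.33 over the settings). Of 25 promoter regions 24 were lower and 1 higher, with a median of -1.08, against 66% lower and -0.65 over all protein-coding promoter regions. With factors from regions that have a peak in every library, 18 were lower and the median was -0.47. CCND2, cyclin D2, had 47.5 and 47.9 CPM at 0 h and 9.23 and 7.67 at 72 h (log2 fold change -2.50, SE 0.11, adjusted p = 2.07e-14). E2F2, a factor of S phase entry, had 49.8 and 45.6 CPM and then 11.8 and 11.9 (-2.005, SE 0.10), and GINS2, of the replicative helicase, 21.4 and 21.0 and then 6.10 and 5.25 (-1.90, SE 0.15). CCND1 went the other way, from 17.6 and 18.8 CPM to 53.2 and 59.1 (1.62, SE 0.09), as did the inhibitor CDKN1A, from 15.5 and 16.6 to 44.5 and 45.6 (1.49, SE 0.09). The libraries of these 5 loci did not overlap between times, as in 91% of all tested regions. MYC had 69.7 and 65.0 CPM at 0 h and 67.1 and 69.8 at 72 h (0.02, SE 0.08, adjusted p = 0.782), and its libraries overlapped.

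Markers of other cell types were also examined. Of 22 monocyte and macrophage markers 14 loci were tested, 8 higher (57.1%) and 5 lower (35.7%), where all loci had 37.9% higher and 43.9% lower. With the region table's factors 5 were higher. Their summed level was 743 and 761 CPM at 0 h and 806 and 832 at 72 h. CSF1R, the receptor of macrophage growth factor, rose from 28.1 and 25.9 CPM to 178 and 185 (log2 fold change 2.75, SE 0.07), ITGAX, an integrin of myeloid cells, by 5.22 and CD86 by 3.56, while LYZ and CSF3R fell by 0.81 and 1.53. S100A9 had 0 and 0.0448 CPM at 0 h, which is 1 count, and 2.63 and 3.89 at 72 h, a ratio of 139.7 (24.7 to 5551). Those without a tested locus included CD163, MRC1, MPEG1, CEBPA, MNDA, FCN1 and S100A8. Lymphoid markers had 14 of 20 tested, 8 higher (57.1%) and 2 lower (14.3%), with sums of 319 and 326 CPM and then 522 and 543. The lowest lymphoid locus value was -1.81. With the region table's factors 6 were higher and 5 lower, with a median of 0.07. Of the list's 7 tested promoter regions 4 were higher (57.1%, against 16% of all) and 3 lower (42.9%, against 66%), the lowest at -3.02. EBF1 rose from 9.86 and 9.58 to 177 and 192 CPM (4.25, SE 0.10), PAX5 by 3.77, CD5 by 2.03 and TCF7 by 1.95, while CD79B, MS4A1, CD7, CD8A, CD4 and GATA3 had no tested locus. Markers of other tissues had 12 of 20 tested, 5 higher (41.7%) and 7 lower (58.3%); CDH5, of endothelium, rose by 5.96, COL1A1 by 3.09, COL3A1 by 1.87 and MYH7 fell by 2.25. The part that such lineage markers play in the other results was not tested. The strip of loci by list shows the spread within each group.

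**Figure D4:**
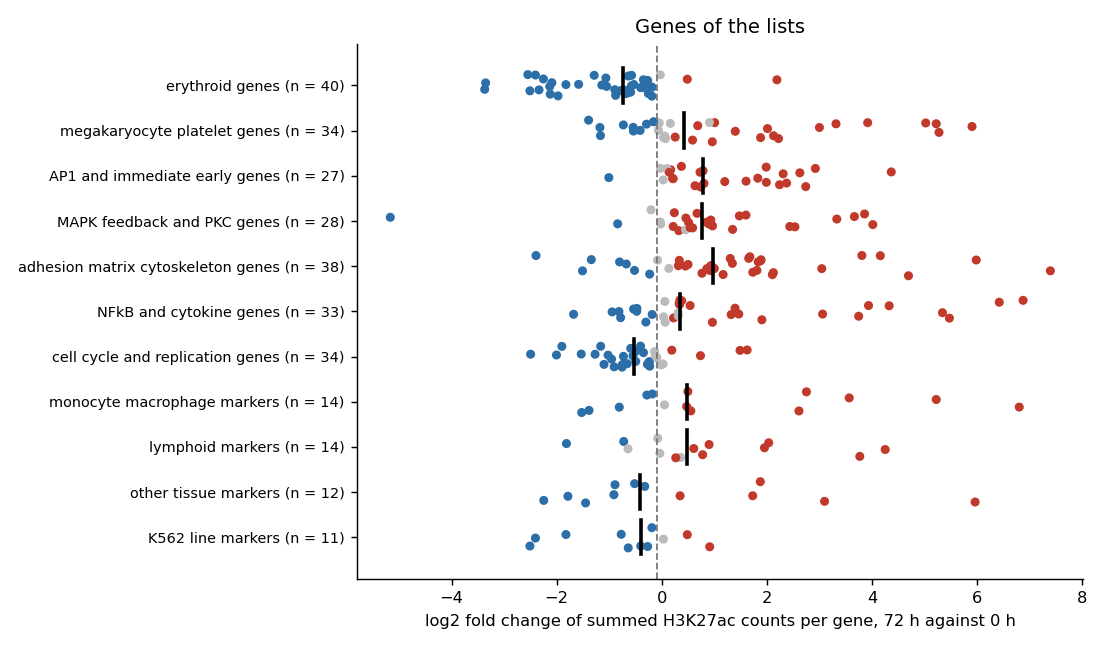
Log2 fold change of summed H3K27ac counts per gene locus, 72 h against 0 h, 1 point per gene in 11 lists, with called rises in red, called falls in blue and the rest in grey. Black bars mark list medians, from -0.74 for the erythroid genes to 0.97 for the adhesion genes, and the dashed line marks the median of all 15655 loci at -0.09; the lists were chosen with earlier results of these data known, and the points of FLI1, MMP9 and S100A9 rest on at most 3 counts at 0 h.

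Along single genes the regions could move alike or apart. At KLF1 all 8 regions fell, least at chr19:12881184-12882252 (-1.04) and most beside the start. The region over the start (chr19:12886398-12887606) had 69.0 and 68.7 CPM at 0 h and 1.92 and 2.44 at 72 h (log2 fold change -4.98, SE 0.14). At CD44 all 11 regions rose, and the highest at 72 h lay just outside the gene span, chr11:35235328-35237152, with 1.14 and 0.685 CPM at 0 h and 51.6 and 58.3 at 72 h (5.92, SE 0.19). At ITGB3 12 of 13 regions rose, with the highest at 72 h at chr17:47264381-47266780, 25.2 and 22.4 CPM at 0 h and 109 and 119 at 72 h. At JUN the region over the start rose by 0.29 (SE 0.11), from 39.6 and 38.7 to 49.7 and 46.2 CPM, and a faint region 391 bases from it by 2.48.

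TAL1 combined a falling start and rising distal regions. Its promoter region (chr1:47229105-47231906) went from 163 and 168 CPM to 97.5 and 105 (log2 fold change -0.71, SE 0.11). At chr1:47210656-47212372, outside the gene span, the level went from 15.4 and 17.9 to 64.5 and 69.8 CPM (2.01, SE 0.11), and at chr1:47212531-47213962 from 30.7 and 31.3 to 61.2 and 68.3 (1.06, SE 0.11). At MYC 3 of 6 regions fell, 1 rose and 2 were not called. At ITGA2B all 4 regions fell, the promoter region by 0.59.

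ARHGAP22 was the clearest case of regions moving apart, and was chosen after its values were seen. Its locus changed little as a whole, from 788 and 823 CPM to 709 and 722 (log2 fold change -0.17, SE 0.06). Of 37 regions, 18 were at least 4-fold higher and 12 at least 4-fold lower. The regions that fell lay towards one end. The strongest at 0 h, chr10:48481682-48485688, had 299 and 304 CPM and then 25.7 and 23.8 (-3.60, SE 0.12). The regions that rose lay towards the other end. At chr10:48589032-48592521 the level was 0.341 and 0.632 CPM at 0 h and 108 and 115 at 72 h (7.81, SE 0.19). A region 1202 bases from a listed start at that end, chr10:48653979-48655063, had 0.114 and 0 CPM and then 19.6 and 18.2. Among 3777 loci with at least 6 regions, 97 held at least 3 called regions 4-fold higher and 3 called regions 4-fold lower, among them FHIT, PPM1H, FOXP1, KAZN, SYN3 and RUNX1. RUNX1, a factor of blood cell development, had 16 regions higher and 16 lower of 42.

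**Figure D5:**
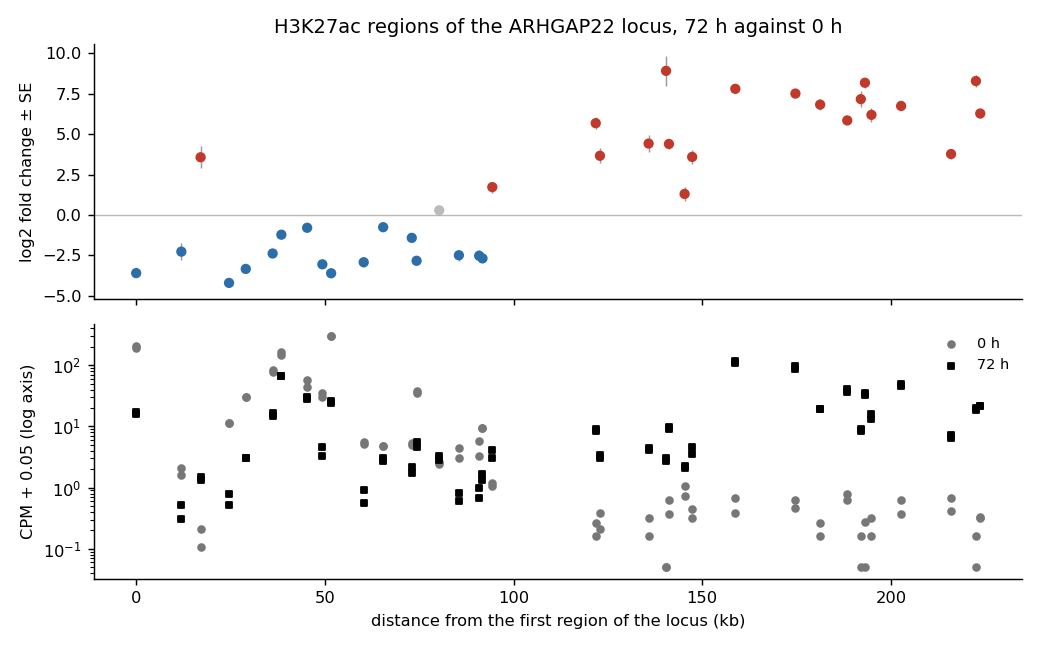
H3K27ac regions of the ARHGAP22 locus by distance in kb from the first region. Top, log2 fold change at 72 h against 0 h with its standard error, rises in red, falls in blue and a region that was not called in grey; bottom, level in each 0 h library (grey circles) and 72 h library (black squares) as CPM + 0.05 on a log axis. Of 37 regions 16 fell and 20 rose, and all falls lie in the left part; fitted rises from 3 or fewer counts at 0 h depend on the model's prior.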

How the data were processed

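Counts per region and library were deposited by the authors, unnormalized per the file headers and whole in every cell. The deposited tables also hold the authors' log2 fold changes, whose method is not given in the sources used here, and adjusted p-values that repeat between contrasts and were not used. Peak lists hold the authors' −log10 q-values. The submitters' processing notes name Trim Galore 0.4.3, BWA 0.7.17, SAMtools 1.9, deepTools 3.0.1, MACS2 and bedtools 2.26, and both hg19 and hg38 without roles; contig names and a last position of 64329816 on chromosome 20 match GRCh38, the build used here.

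Counts of all 6 H3K27ac libraries were fitted together with edgeR 4.0.16 in R 4.3.3 (filterByExpr, TMM scaling, quasi-likelihood test) and adjusted by Benjamini-Hochberg over each whole table; features with an adjusted p under 0.05 were called. Regions on other contigs were fitted but are not described. Promoters were regions within 2 kb of a start in RefSeq's GRCh38.p14 promoter table (35116 starts of 27305 genes, none on chromosome 8). Loci summed regions in gene spans extended by 5 kb, and clusters joined regions with gaps of up to 12500 bp. A region can count for several loci. Named features were called and did not overlap between times. They were the extremes of 10 promoters (mean of at least 10 CPM), 8 loci (at least 50 CPM and 3 regions) and 5 clusters or distal regions per direction (by CPM difference). To these were added up to 4 called genes per list, those with the largest changes in either direction, and genes of known role. Members and lists were chosen with earlier results of these data known. Peaks and regions were joined at any overlap. On simulated data, 176 of 200 regions changed 4-fold among 93408 were recovered and 3.83% of 183 calls were false. For loci 197 of 200 among 15610 were recovered, with 4.37% of 206 calls false. The simulation changed few features, as many up as down. Its rates therefore cannot be carried over to data in which 81.6% of regions were called and the split depends on scaling. Alternatives were other scalings, filters, windows, libraries and DESeq2 1.42.0.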

Additional observations from a re-analysis of the deposited data

How the results depend on the processing

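With factors from regions that have a peak in every library, lower regions numbered 23140, promoter regions were 6125 higher and 5457 lower, lower clusters numbered 7990, and the locus values were 0.0028 for GATA1, -0.10 for ITGA2B and 0.22 for MYC, which was then called; 83.44% of called regions kept call and direction and 1023 were called in the other direction. With DESeq2 90.71% kept theirs, and GATA1 (-0.11) lost its call, as it did at a mean count of at least 50 (-0.15). That filter left 55592 regions, of which 23423 were higher, fewer since fewer were tested. Promoters taken within 5 kb of a start gave 6399 higher, and gaps of up to 5 kb gave 24605 higher and 21275 lower clusters, more since more features were tested. The region table's factors for summed counts, added after seeing the data, gave 14 higher in the protein kinase C list, 5 higher among monocyte markers and -0.39 for MYC, which was -0.16 with total counts. Peaks with −log10 q of at least 10 left 13173 regions with a peak at both times, 2921 at 0 h only, 11471 at 72 h only and 54250 at neither, as fewer peaks pass. The cause of the other moves was not tested. Leaving out single libraries gave 37576 to 38905 higher and 32992 to 33436 lower regions, 3273 to 3371 and 9542 to 9800 promoter regions, 5564 to 5583 and 6243 to 6361 loci, 13697 to 14068 and 11518 to 11881 clusters, GATA1 at -0.21 to -0.17 and MYC at -0.026 to 0.073. Replicate numbers do not pair the samples (correlation of deviations -0.0092 over 2 pairs); a fit with the replicate block gave 40709 and 35681 regions, 3636 and 10393 promoter regions, 5968 and 6939 loci, and 14669 and 12476 clusters, and kept 98.9% of calls. Faint regions rest on few counts: 24.2% and 23.8% had under 10 at 0 h.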
